A study of Mus musculus with 4 samples.

Results

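CC chemokines are small secreted proteins that draw leukocytes along gradients held on heparan sulfate in the matrix and on endothelium, through G protein-coupled receptors. In wounded connective tissue they are best known for the entry of monocytes through Ccr2, of eosinophils through Ccr3 and of other myeloid cells through Ccr1, and macrophages and fibroblasts are among their usual sources. The 10 genes described here, of 32285 listed, are Ccl2, Ccl7 and Ccl8 (attractants of monocytes and, for Ccl8 in the mouse, of Ccr8-bearing T cells), Ccl11 and Ccl24 (the eotaxins, ligands of Ccr3), Ccl3 and Ccl4 (the macrophage inflammatory proteins, the former a ligand of Ccr1), Ccl6 and Ccl9 (rodent ligands of Ccr1) and Ccl22 (a ligand of Ccr4). They were chosen by their measured UMI levels in these same libraries, by class and time, so all values are a description. Each symbol matched 1 row of every matrix, and all 10 members had molecules in each library.

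The tissue was the mouse digit at the second phalanx, P2, in FVB/NJ animals of wild-type genotype, 8 weeks old, with both sexes pooled per the labels. One library came from homeostatic, unamputated digits, and 1 each from fibrosing digits at 12, 17 and 28 days post-amputation (dpa) through the middle of P2, a level the labels call non-regenerative. Cells were freed by manual dissection, trypsin and collagenase I, cleared of red cells with ACK buffer, sorted as live with propidium iodide and loaded on 10x Chromium with 3′ v3 chemistry. Each group was thus 1 library of pooled animals, so no test was possible, and no difference has a replicate check.

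The 4 libraries held 8813 to 16045 barcodes and 92313847 to 197140774 unique molecular identifiers (UMIs, counted molecules). After filtering, 35039 cells remained, with a median of 11637.5 UMIs per cell in the unamputated, 9527 in the 12 dpa, 8507 in the 17 dpa and 6651 in the 28 dpa library. Pairs of libraries shared 19 to 87 barcodes, and the profiles behind a shared barcode correlated at a median of 0.35 to 0.45, against 0.34 to 0.42 for mismatched cells. All 4 libraries went against the label of pooled sexes: at 12 dpa 3519 cells were called female and 0 male, whereas the unamputated, 17 dpa and 28 dpa libraries held 8127, 4633 and 4784 male cells and 1, 0 and 0 female ones. For every value at 12 dpa, sex and time therefore cannot be told apart. Cells fell into 32 clusters, 27 of them named from markers, with a name standing for marker-like cells. Of the 5 unnamed clusters, 3 matter here: cluster 15 (led by Ccrl2, Acod1, Il1b and Cxcl2), cluster 0 (led by Acp5, Atp6v0d2 and Ctsk) and cluster 12 (led by Id4, Colec11 and Rgs5). Chemokine and receptor genes took no part in the clustering.

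Summed over all cells of a library, Ccl2, Ccl7, Ccl6, Ccl9 and Ccl24 had their highest level at 28 dpa, Ccl8, Ccl11, Ccl3 and Ccl22 at 17 dpa and Ccl4 in unamputated tissue. Ccl2 stood at 45.1 counts per 1000000 UMIs (CPM) in the unamputated library, 61.7 at 12 dpa, 102 at 17 dpa and 147 at 28 dpa. Ccl7 followed the same order, at 19.9, 37.7, 44.2 and 66.3 CPM. Both were thus higher in every amputated library than in unamputated digits, and higher the later the library. Ccl8 was at 4.45, 11.7, 33.8 and 19.2 CPM, with its peak at 17 dpa. Ccl11 was at 16.9, 7.45, 41.2 and 36.9 CPM. Ccl11 therefore dipped at 12 dpa before its higher levels in the later libraries.

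Ccl6 had 47.6 CPM in the unamputated library, 16.9 at 12 dpa, 86.0 at 17 dpa and 139 at 28 dpa. Ccl9 had 53.4, 46.0, 102 and 146 CPM in that order. Both Ccr1 ligands were lowest at 12 dpa and highest at 28 dpa. Ccl24 had the widest range as a ratio of its highest to its lowest level, from 0.795 CPM at 12 dpa through 2.54 in unamputated tissue and 24.0 at 17 dpa to 49.4 at 28 dpa. Ccl3 and Ccl4 ran the other way late: Ccl3 was at 41.8, 34.2, 50.3 and 18.9 CPM, and Ccl4 at 52.4, 41.9, 46.6 and 18.8 CPM. Ccl22 stayed low, at 4.31, 1.496, 7.22 and 2.69 CPM, and 188 of its 213 UMIs at 28 dpa were in 1 cell. Exact Poisson 95% intervals on these sums, drawn in the plot of library-wide levels, are narrow (43.99 to 46.2 CPM for Ccl2 in unamputated tissue) and, like all intervals here, cover counting error only. In sums over a whole library, fewer cells of a type and less RNA per cell cannot be told apart, so the levels were next taken within cell classes. Where each cell counted equally, shallow cells weighed more, and Ccl6 was at 127, 42.6, 126 and 153 CPM and Ccl3 at 139.8, 139.1, 143 and 38.95 CPM: the 17 dpa level of Ccl6 was then no higher than that of unamputated tissue. Ccl11 was then at 46.6 CPM at 17 dpa and 49.3 at 28 dpa, so its highest library changed.

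**Figure D1:**
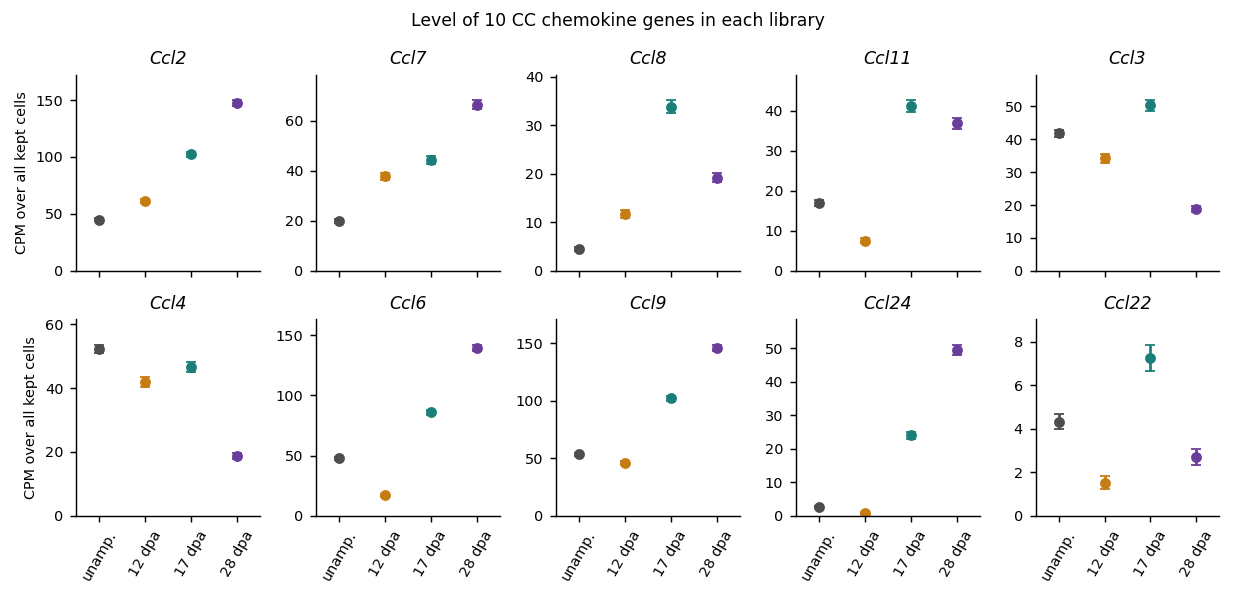
Level of each CC chemokine over all cells kept, in CPM on an axis from 0 in each panel, for the unamputated, 12, 17 and 28 dpa libraries (1 point each, at even steps), with exact Poisson 95% intervals. Ccl24 spans the widest range as a ratio, 0.795 to 49.4 CPM, and Ccl3 and Ccl4 are lowest at 28 dpa.

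The members differed in the cells that carried them, and some were carried by both stromal and myeloid classes. For Ccl7 and Ccl8 the leading class changed with the library: tenocyte-like cells held 31.8% of Ccl7 and 43.1% of Ccl8 UMIs in the unamputated library, close to the 31.4% and 42.3% of fibroblast-like cells, and 73.5% and 82.6% at 12 dpa, where they also made up 42.6% of all UMIs. When each cell was named alone, without its cluster, fibroblast-like cells led for both in unamputated tissue (42.2% and 62.9%), tenocyte-like cells held 43.4% of Ccl7 at 12 dpa, and fibroblast-like cells led for Ccl8 with 64.4%. At 17 dpa macrophage-like cells held the largest share of Ccl8, 51.1%, against 44.3% in fibroblast-like cells. They held 28.0% of Ccl7 at 17 dpa and 27.8% at 28 dpa. At 28 dpa, fibroblast-like cells held the largest share, 61.1% of Ccl7 and 68.8% of Ccl8. Ccl11 was carried by cluster 12 (35.3%) in unamputated tissue, by pericyte-like cells (47.7%) at 12 dpa and by fibroblast-like cells at 17 and 28 dpa (65.2% and 55.6%). With each cell named alone pericyte-like cells led in unamputated tissue (36.3%), and with no doublets removed fibroblast-like cells held 25.4% and 29.9% at 17 and 28 dpa, behind an unnamed cluster (34.4%) at 17 dpa. In the unamputated library Ccl2 was spread most widely of the members, with no class above 20.9%. Its leading class was tenocyte-like at 12 dpa (55.1%) and fibroblast-like at 17 and 28 dpa (40.6% and 43.6%), with macrophage-like cells second in both. That order was not stable: with each cell named alone fibroblast-like cells led at 12 dpa (30.05%), and with no doublets removed macrophage-like cells led at 17 dpa (34.4%) and 28 dpa (27.3%).

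Ccl24 belonged to macrophage-like cells in all 4 libraries, with 59.7%, 78.0%, 96.5% and 93.5% of its UMIs. The macrophage-like share of Ccl6 was 24.6%, 42.0%, 70.1% and 88.5%. In unamputated tissue cluster 15 was close for Ccl6, at 23.5%, and with each cell named alone neutrophil-like cells led (37.7%). For Ccl9, cluster 0 led in unamputated tissue and at 12 dpa (57.1% and 69.6%) and macrophage-like cells at 17 and 28 dpa (61.9% and 84.0%); with each cell named alone, macrophage-like cells led in the first 2 libraries too (36.7% and 36.3%). Cluster 15 led for Ccl3 in the first 3 libraries (47.6%, 56.1% and 53.6%) and macrophage-like cells at 28 dpa (63.0%). In the first 3, neutrophil-like cells led for Ccl3 with each cell named alone (43.5%, 45.9% and 55.0%). They also led there with no doublets removed (54.8%, 53.5% and 64.8%). Ccl22 lay almost wholly in dendritic-like cells in the first 3 libraries, with 96.6%, 96.4% and 89.2% of its UMIs. The 2 eotaxins were thus carried by different cells, Ccl11 by cluster 12, pericyte-like and fibroblast-like cells and Ccl24 by macrophage-like cells.

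**Figure D2:**
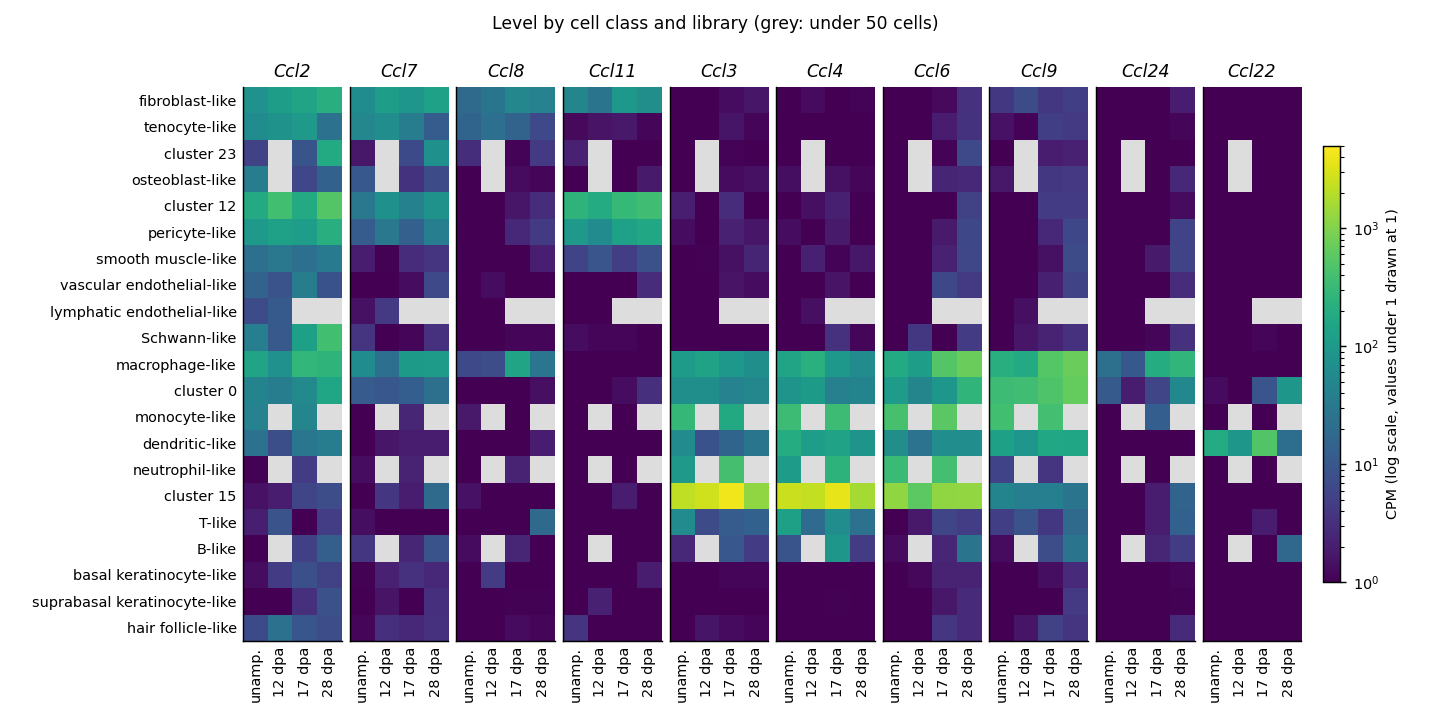
Level of each member in CPM on a log colour scale, by cell class or cluster (rows) and library (4 columns for each member), with classes of under 50 cells in grey. Ccl3, Ccl4 and Ccl6 reach 4214, 3619.8 and 1249.9 CPM in cluster 15, Ccl24 reaches 270 CPM in macrophage-like cells at 28 dpa, and Ccl22 497 CPM in dendritic-like cells at 17 dpa.

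On GRCm38 (the build the submitters' processing notes call mm10), with positions from GENCODE M21, 8 of the 10 members lie on chromosome 11 in 2 runs. The first run holds Ccl2, Ccl7, Ccl11 and Ccl8, in that order on the plus strand, at chr11:82035571-82116799 (81.2 kb). The second holds Ccl9, Ccl6 and Ccl3 on the minus strand and Ccl4 on the plus strand, at chr11:83572919-83664683 (91.8 kb). Ccl24 is at chr5:135569937-135573049 on the minus strand and Ccl22 at chr8:94745590-94751699 on the plus strand. Over 75 sums of UMIs by class and library, in 21 classes or clusters, the Pearson correlation of log2(CPM + 1) was 0.21 to 0.74 for the 6 pairs within the first run (median 0.56) and 0.73 to 0.96 for the 6 pairs within the second (median 0.85). For the 16 pairs across the runs it was -0.36 to 0.23 (median -0.08). For the 17 pairs that include Ccl24 or Ccl22, all on different chromosomes, it was -0.16 to 0.66 (median 0.32). The sums share libraries and cell composition, so these correlations are a description.

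Promoter windows were found for 5 of the 10 members, and 4 of them are shown because they come from both runs: Ccl8 from the first, and Ccl9, Ccl6 and Ccl3 from the second. Each is the 250 bases before the RefSeq gene start (GRCm38.p6), 5′ to 3′ on the strand of the gene. Capitals mark a match to a searched motif, and in Ccl6 a repeated stretch.
Ccl8 (chr11:82114935-82115184, plus strand): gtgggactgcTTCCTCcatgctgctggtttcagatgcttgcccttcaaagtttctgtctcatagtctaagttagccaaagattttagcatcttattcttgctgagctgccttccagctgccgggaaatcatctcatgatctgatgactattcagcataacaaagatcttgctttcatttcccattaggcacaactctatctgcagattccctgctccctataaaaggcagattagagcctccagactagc
Ccl9 (chr11:83578637-83578886, minus strand): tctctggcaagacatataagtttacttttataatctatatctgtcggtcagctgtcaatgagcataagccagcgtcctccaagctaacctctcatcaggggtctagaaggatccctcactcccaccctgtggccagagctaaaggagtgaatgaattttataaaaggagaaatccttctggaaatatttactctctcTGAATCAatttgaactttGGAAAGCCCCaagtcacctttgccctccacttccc
Ccl6 (chr11:83593088-83593337, minus strand): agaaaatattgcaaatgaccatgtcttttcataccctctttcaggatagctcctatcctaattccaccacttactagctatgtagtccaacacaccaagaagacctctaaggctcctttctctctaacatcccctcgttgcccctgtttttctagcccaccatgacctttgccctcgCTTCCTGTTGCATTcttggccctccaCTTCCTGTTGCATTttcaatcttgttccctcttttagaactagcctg
Ccl3 (chr11:83649379-83649628, minus strand): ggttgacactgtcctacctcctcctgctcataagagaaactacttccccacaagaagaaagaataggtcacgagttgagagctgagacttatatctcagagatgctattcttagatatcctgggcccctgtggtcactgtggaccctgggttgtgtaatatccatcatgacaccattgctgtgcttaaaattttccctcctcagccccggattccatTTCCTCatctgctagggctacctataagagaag

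The motifs searched on both strands were the NF-kappaB consensus, AP-1 (TGANTCA), STAT with 3 (TTCNNNGAA) or 4 bases between its arms, the PU.1 core (GAGGAA) and the TATA box (TATAAA). The Ccl9 window held an NF-kappaB match, GGAAAGCCCC, 35 bases before the start on the minus strand relative to the gene, and an AP-1 match, TGAATCA, at 53 bases. Among 32851 windows of the same length, 3.90% held the NF-kappaB consensus, 6.75% the AP-1 motif and 7.02% and 5.85% the STAT motifs. Ccl3 held a PU.1 core 33 bases and Ccl8 one 240 bases before the start, both on the opposite strand, a motif found in 23.3% of windows. The Ccl3 distance is from the RefSeq start, where, unlike for Ccl8, no GENCODE transcript starts. The TATA box, found in 12.4% of windows and not capitalised, lay 32 bases before the Ccl8 start and at 3 places in Ccl9, 2 of them overlapping on opposite strands. Ccl6 held none of these letters in this window, but the 14-base run CTTCCTGTTGCATT occurs in it at 73 and again at 47 bases before the start. The longest stretch shared by the neighbours Ccl6 and Ccl9 is the 13-base run GCCCTCCACTTCC. A match is a description of letters, not a binding site.

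In macrophage-like cells, Ccl6, Ccl9 and Ccl24 were higher at 17 and 28 dpa than in unamputated digits, Ccl8 peaked at 17 dpa, and Ccl4 was lowest at 28 dpa. This class held 805, 488, 957 and 1795 cells. Its macrophage markers, among them Csf1r, C1qa and Cd68, summed to 10077, 11913, 12367 and 9862 CPM, and fibroblast markers to 236, 760, 450 and 636 CPM. Ccl6 stood at 182 CPM (95% interval 173 to 190) in unamputated tissue, 120 at 12 dpa, 504 at 17 dpa and 719 (705 to 734) at 28 dpa. The log2 ratio to the unamputated library, with 1 CPM added to both, was -0.59, 1.47 and 1.98 at 12, 17 and 28 dpa. Ccl9 had 218, 183, 529 and 714 CPM and ratios of -0.25, 1.28 and 1.71. Both were lowest at 12 dpa and highest at 28 dpa, with intervals that did not overlap between libraries.

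Ccl24 was at 23.4 CPM (20.4 to 26.7) in unamputated macrophage-like cells, 10.5 at 12 dpa, 194 at 17 dpa and 270 (261 to 279) at 28 dpa, or log2 ratios of -1.08, 2.998 and 3.47. The share of these cells with a Ccl24 UMI was 9.32%, 5.74%, 37.0% and 49.6%, and after each cell was thinned to 2000 UMIs 3.88%, 2.29%, 18.4% and 28.9%. Basal keratinocyte-like cells, which should lack the gene, had a Ccl24 UMI in 0 cells of the first 3 libraries and in 1.25% at 28 dpa, with medians of 18028 to 10009.5 UMIs per cell against 10698 to 7176 in the macrophage-like class. The macrophage-like share lay above this background in every library.

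The level of Ccl8 in macrophage-like cells was 6.50 CPM in unamputated tissue, 7.54 at 12 dpa (4.80 without the highest cell), 145 at 17 dpa and 28.8 at 28 dpa. Its log2 ratios were 0.19, 4.28 and 1.99. The 17 dpa peak lay in few cells: 11.3% had a UMI (6.87% after thinning to 2000 UMIs), and 46 cells with at least 5 UMIs held 1234 of the 1355 molecules. The highest cell alone had 180, and without it the level was 125 CPM. In those 46 cells fibroblast markers stood at 410 CPM, against 452 in the other macrophage-like cells, and macrophage markers at 16914 against 12074.

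The monocyte attractants Ccl2 and Ccl7 stayed under a 2-fold difference at 17 and 28 dpa, whereas at 12 dpa Ccl7 had the lowest log2 ratio of the members. Ccl2 was at 146, 74.5, 285 and 258 CPM (log2 ratios -0.96, 0.96 and 0.82) and Ccl7 at 62.9, 22.4, 104 and 108 CPM (-1.45, 0.71 and 0.77). Both were lowest at 12 dpa. Ccl3 stood at 113, 134, 94.5 and 69.3 CPM (0.25, -0.25 and -0.69) and Ccl4 at 146, 219, 94.5 and 61.5 CPM (0.58, -0.62 and -1.23). Over the class this pair was thus highest at 12 dpa and lowest at 28 dpa, the reverse of Ccl6 and Ccl9.

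Of the 10 members, 8 reached 5 CPM in macrophage-like cells of either library compared, and Ccl11 and Ccl22 did not. At 12 dpa, 0 of the 8 were at least 2-fold higher and 2 at least 2-fold lower (Ccl7 and Ccl24), where 1.40% of 9766 genes were higher and 2.31% lower. At 17 dpa, 4 were higher (Ccl6, Ccl8, Ccl9 and Ccl24) and 0 lower, against 3.57% and 1.83% of 9957 genes. At 28 dpa the same 4 were higher and Ccl4 was lower, against 3.97% and 5.72% of 9866 genes. The median log2 ratio of the 8 was -0.42, 1.12 and 1.26, beside -0.21, 0.04 and -0.03 over all genes. Since the members were chosen with these ratios in view, the counts are given with no inference.

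**Figure D3:**
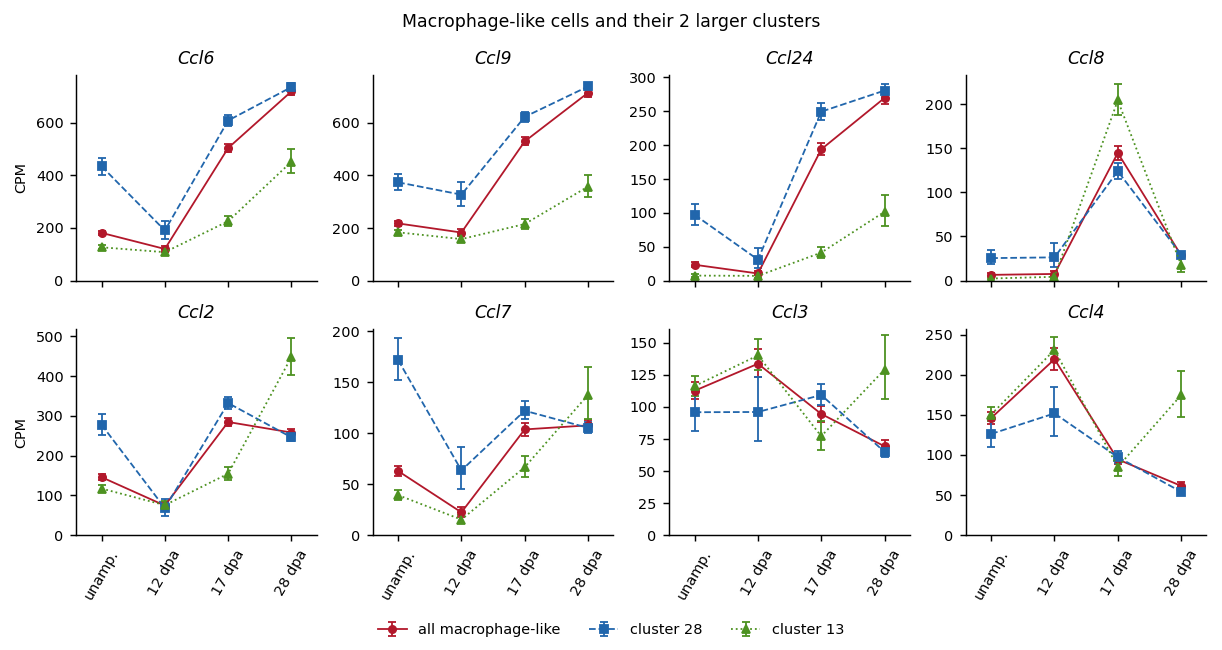
Level of 8 members in macrophage-like cells, in CPM on an axis from 0, by library, for the class as a whole and for its clusters 28 and 13 alone, with exact Poisson 95% intervals. Ccl6, Ccl9 and Ccl24 are higher in cluster 28 than in cluster 13 in every library.

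The macrophage-like class was made of different clusters in different libraries. Cluster 13, led by Ms4a7, Gpnmb and Trem2, held 650, 395, 281 and 105 of its cells, and cluster 28, led by Folr2, Pf4 and F13a1, held 155, 93, 644 and 1688. The other 32 cells at 17 dpa and 2 at 28 dpa were in cluster 31, led by Cbr2, Pf4 and histone genes, which had Ccl24 at 269.6 CPM and 9.36% of all its UMIs at 17 dpa. Within cluster 28 alone, Ccl6 was at 435, 191, 609 and 736 CPM, Ccl9 at 374, 327, 623 and 738, and Ccl24 at 97.1, 31.0, 249 and 281. At 17 and 28 dpa these 3 genes differed from unamputated tissue in the same direction as in the whole class but by less, and the median log2 ratio of the 8 members at 28 dpa was 0.02. Of the 8 members, Ccl8 and Ccl24 were at least 2-fold higher in cluster 28 at 17 dpa, where 1.99% of all genes were. At 28 dpa Ccl24 alone was higher there and Ccl4 lower, against 3.22% and 4.01% of all genes. The 2-fold calls of Ccl6 and Ccl9 at both times, and of Ccl8 at 28 dpa (29.5 against 25.5 CPM), were thus lost in cluster 28. In cluster 13, 2 of the 8 were higher at 17 dpa and 5 at 28 dpa, against 1.75% and 4.51% of all genes. Within cluster 13, Ccl6 was at 127, 108, 226 and 452 CPM and Ccl24 at 7.38, 6.97, 41.3 and 102, and the median at 28 dpa was 1.81. Ccl3 and Ccl4 at 28 dpa also turned with the cluster: in cluster 13 they were at 129 against 116 and 175 against 150.4 CPM in unamputated tissue, with intervals of the ratio that include 0, and in cluster 28 at 64.96 against 95.9 and 54.2 against 126 CPM. Ccl2 at 28 dpa went both ways, at 448 against 117 CPM in cluster 13 and at 246 against 278 CPM in cluster 28. The Ccl8 peak at 17 dpa was present in both clusters, at 204 CPM in cluster 13 (134 without the highest cell) and 124 CPM in cluster 28.

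In fibroblast-like cells the genes of the first run, Ccl2, Ccl7, Ccl8 and Ccl11, were the highest of the members. The class held 743, 242, 1823 and 2431 cells, with fibroblast markers (Col1a1, Dcn and others) at 64133, 56205, 62586 and 44532 CPM and macrophage markers at 177, 131, 135 and 128 CPM. Ccl2 stood at 74.4 CPM in unamputated tissue, 117 at 12 dpa, 145 at 17 dpa and 210 at 28 dpa (log2 ratios 0.65, 0.96 and 1.48). At 12 dpa, 1 cell held 128 of its UMIs, and without that cell the level was 75.7 CPM. Ccl7 was at 62.6, 116, 89.2 and 133 CPM (0.88, 0.50 and 1.07). Ccl8 was at 18.9, 27.3, 52.4 and 43.2 CPM (0.51, 1.43 and 1.154). In the 48 cells with at least 5 Ccl8 UMIs at 28 dpa macrophage markers stood at 471 CPM, against 121 in the others, and in the 68 such cells at 17 dpa at 199 against 131 CPM. Fibroblast markers were also higher in these cells, at 65582 against 44096.5 CPM at 28 dpa and 104186 against 60535 CPM at 17 dpa. The part of these cells in the Ccl8 level was not tested. Ccl11 was at 49.8, 26.6, 94.1 and 67.0 CPM (-0.88, 0.90 and 0.42). Over the whole class, Ccl2 and Ccl7 were thus highest at 28 dpa, Ccl8 and Ccl11 at 17 dpa, and Ccl11 alone was lowest at 12 dpa.

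At 12 dpa 5 members reached the minimum of 5 CPM, and at 17 and 28 dpa 4 did. At 12 dpa, 0 were at least 2-fold higher and 0 lower, where 1.09% of 10779 genes were higher and 6.62% lower. At 17 dpa 1 was higher (Ccl8) and 0 lower, against 0.585% and 1.40% of 10772 genes. At 28 dpa 3 were higher (Ccl2, Ccl7 and Ccl8) and 0 lower, against 2.23% and 6.44% of 10787 genes. In cluster 26, which held 1333 of the 2431 cells at 28 dpa, 0 of the 3 members that reached 5 CPM were 2-fold higher (3.07% of 10278 genes were). At 28 dpa 4 of 5 were in cluster 10 and 2 of 4 in cluster 16, against 2.67% and 3.15% of all genes. The median log2 ratio over the class was 0.65, 0.93 and 1.11, beside -0.19, -0.04 and -0.14 over all genes. The 12 dpa median was -0.06 with a looser filter on cells and -0.58 in cluster 10 alone.

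**Figure D4:**
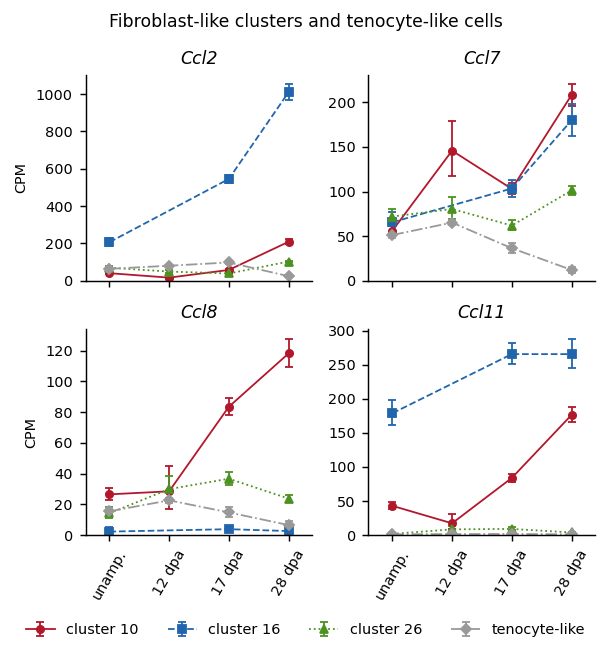
Level of Ccl2, Ccl7, Ccl8 and Ccl11 in CPM on an axis from 0, by library, in the fibroblast-like clusters 10, 16 and 26 and in tenocyte-like cells, with exact Poisson 95% intervals and cluster 16 not drawn at 12 dpa (32 cells). Ccl2 and Ccl11 are highest in cluster 16, which reaches 1010.3 CPM of Ccl2 at 28 dpa and holds almost no Ccl8.

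The fibroblast-like class was made of different clusters in different libraries, with 417, 68, 903 and 780 cells in cluster 10, 137, 32, 439 and 318 in cluster 16 and 189, 142, 481 and 1333 in cluster 26. The clusters differed in which member they carried. Cluster 16, led by Foxd1, Cilp and Cpxm2, had the highest Ccl2 of the 3, at 206 CPM in unamputated tissue, 545 at 17 dpa and 1010.3 at 28 dpa, and the highest Ccl11, at 179, 265 and 265 CPM. Its dissociation-response genes (described further on) were also the highest of the 3 in unamputated tissue and at 17 dpa, at 10967 and 12935 CPM, but not at 28 dpa, when cluster 10 had 10905 and cluster 16 10127 CPM. It held almost no Ccl8 (2.34, 3.91 and 2.69 CPM). Cluster 10, led by Pi16, C4b and Dpt, carried Ccl8 at 26.6, 28.5, 83.5 and 118 CPM and Ccl7 at 56.0, 146, 103 and 208 CPM. At 12 dpa, without the highest cell for each gene, Ccl8 was at 15.9 and Ccl7 at 72.9 CPM. Ccl11 in cluster 10 was at 43.0, 17.4, 83.9 and 176 CPM, so Ccl8 and Ccl11 were there highest at 28 dpa, unlike in the class. In cluster 26, led by Clec3b, Ccn3 and Mfap5, Ccl2 was at 69.1, 48.5, 38.1 and 102 CPM, so it was lower than in unamputated tissue at 12 dpa (30.5 without the highest cell) and 17 dpa. Tenocyte-like cells, with 680, 1849, 316 and 391 cells, had Ccl2 at 63.1, 79.8, 97.2 and 23.8 CPM and Ccl7 at 51.2, 65.1, 36.3 and 12.0 CPM, lowest at 28 dpa (15.3 and 7.05 CPM without the highest cell) where the fibroblast-like class was highest.

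Ccl2 was also carried by vascular-associated and glial cells. In pericyte-like cells it was at 97.6, 131, 118 and 219 CPM, and in cluster 12 at 184, 374, 181 and 518 CPM, with 183 CPM at 12 dpa without the highest cell. Schwann-like cells had 38.8, 10.8, 127 and 378 CPM, though 1 cell decided the 17 dpa value, which was 67.5 CPM without it. These classes shared a high point at 28 dpa. Ccl11 was highest of all in cluster 12, at 251, 189, 304 and 361 CPM, and 62.1%, 47.5%, 64.7% and 59.2% of its cells carried a UMI, whereas in the macrophage-like class 0 to 0.613% did. Median depth in cluster 12 was 9360, 6578, 5757.5 and 4101 UMIs, and after thinning to 2000 UMIs the shares were 32.5%, 27.7%, 39.3% and 42.3%, so that 28 dpa was highest, as in CPM.

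Ccl3 and Ccl4, the macrophage inflammatory proteins, reached their highest levels in cluster 15, which held 528, 280, 236 and 182 cells of low depth (medians of 2318.5, 1762, 1896.5 and 1413.5 UMIs). Ccl3 stood there at 2185, 2721, 4214 and 1219.9 CPM, and Ccl4 at 2489.9, 2300.2, 3619.8 and 1584 CPM. Both peaked at 17 dpa and were lowest at 28 dpa. The cluster held 43.3%, 38.7%, 49.7% and 28.4% of all Ccl4 UMIs, and at 28 dpa macrophage-like cells held more, 56.2%. At 12 dpa macrophage-like cells led for Ccl4 with each cell named alone (40.9%) and with no doublets removed (49.9%). Ccl6 was at 1230.3, 594, 1236 and 1249.9 CPM in this cluster, level but for 12 dpa. Ccr1, a receptor for Ccl3, Ccl6 and Ccl9, also had its highest level of any class in cluster 15, at 1306 CPM at 28 dpa, and with Osm it was among the 3 genes most like Ccl3 over the 75 sums (r 0.95 each). The share of cluster 15 cells with a Ccl4 UMI was 43.2%, 38.9%, 37.7% and 28.6%, against 0.358% to 1.36% of the deeper basal keratinocyte-like cells. After thinning it was 41.7%, 47.8% and 40.6% in the first 3 libraries, over 391, 92 and 96 cells, and only 10 cells were deep enough at 28 dpa. Among thinned cells of the unamputated library, Ccl4 was detected in 55.1% of those with Ccl3 and 28.0% of those without.

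In cluster 0, which held 976, 700, 470 and 241 cells and was led by genes of bone resorption, Ccl9 was at 348, 363, 478 and 659 CPM. The level was above that of macrophage-like cells in the first 2 libraries and below it in the last 2. Ccl22 in dendritic-like cells (272, 139, 121 and 76 cells) was at 187, 90.7, 497 and 21.7 CPM. Single cells weighed heavily: without the highest cell the levels were 148, 56.0, 270 and 11.8 CPM, in the same order. In cluster 0 at 28 dpa, Ccl22 stood at 91.1 CPM, but 188 of the 195 UMIs were in 1 cell, and without it the level was 3.27 CPM. The same caution holds for neutrophil-like cells at 17 dpa, where Ccl4 was at 250 CPM with and 66.2 CPM without the highest cell.

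Some pairs of members were found in the same cells in every library with values, and others only in some. No test was run on these shares, which are of cells thinned to 2000 UMIs. Among macrophage-like cells at 28 dpa, Ccl7 was detected in 31.3% of cells with Ccl2 and in 5.50% of those without, Ccl9 in 73.3% of cells with Ccl6 and 56.7% of those without, and Ccl4 in 20.4% and 4.08% of those with and without Ccl3. Each of these differences had the same direction in the other libraries with values. Ccl6 went both ways: in unamputated macrophage-like cells it was in 23.5% of cells with Ccl3 and 19.0% of those without, and at 28 dpa in 42.1% and 52.2%. In cluster 15 it was in 63.1% of cells with Ccl3 against 79.3% in unamputated tissue, but in 50% against 47.7% at 12 dpa. Ccl9 was in 52.3% of macrophage-like cells with Ccl8 against 51.4% of those without at 17 dpa, and in 54.0% against 65.6% at 28 dpa. In fibroblast-like cells at 28 dpa, Ccl7 was found in 30.7% of cells with Ccl2 against 9.24%, and Ccl11 in 20.2% of cells with Ccl8 against 7.98%, again in the same direction in the other libraries with values. Detection in thinned cells depends on the level of both genes, so these shares are compared only within a class and library.

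Some members moved with the dissociation-response genes (13 genes such as Fos, Jun and Egr1, which tissue digestion is known to induce). When macrophage-like cells were split into 3 groups of equal size by their share of such UMIs, Ccl2 in unamputated tissue was at 24.0, 74.1 and 347 CPM in the low, middle and high group, Ccl4 at 35.4, 51.0 and 360 and Ccl3 at 22.4, 69.3 and 251. At 28 dpa Ccl2 was at 115, 129 and 572 CPM. Ccl6 did not follow this order at 28 dpa, at 762, 723 and 666 CPM, and Ccl8 at 17 dpa was at 148, 133 and 154. In fibroblast-like cells at 28 dpa, Ccl2 was at 90.7, 90.4 and 528 CPM and Ccl7 at 56.6, 92.8 and 287 CPM. The whole list summed to 5966, 5137, 5667 and 5372 CPM in macrophage-like and to 5069, 2994, 6917 and 5289 CPM in fibroblast-like cells, in the order of the libraries. The part of dissociation in the differences between libraries was not tested.

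The library-wide levels were also computed for the case that only cluster sizes differed. If every cluster kept its unamputated level and only cluster sizes differed, Ccl7 at 28 dpa would be at 53.7 CPM against 66.3 observed. Nearer still as log2 ratios were Ccl9 at 12 dpa (45.96 observed against 47.2 CPM), Ccl4 at 12 and 17 dpa (41.9 against 38.3 and 46.6 against 43.7), Ccl2 at 12 dpa (61.7 against 55.1) and Ccl7 at 17 dpa (44.2 against 39.7). So were Ccl3 (34.2 against 30.4) and Ccl7 (37.7 against 30.6) at 12 dpa. The observed value stood farther away in other cases, at 49.4 against 15.998 CPM for Ccl24 at 28 dpa, 33.8 against 8.49 for Ccl8 at 17 dpa, 147 against 85.7 for Ccl2, 139 against 79.6 for Ccl6 and 146 against 74.1 for Ccl9 at 28 dpa. Below it lay Ccl4 at 28 dpa, at 18.8 against 35.2 CPM, and Ccl6 at 12 dpa, at 16.9 against 30.02 CPM. At 17 dpa the directions were opposite for Ccl22 (observed log2 ratio 0.63, from cluster sizes -0.58) and Ccl3 (0.26 and -0.26).

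**Figure D5:**
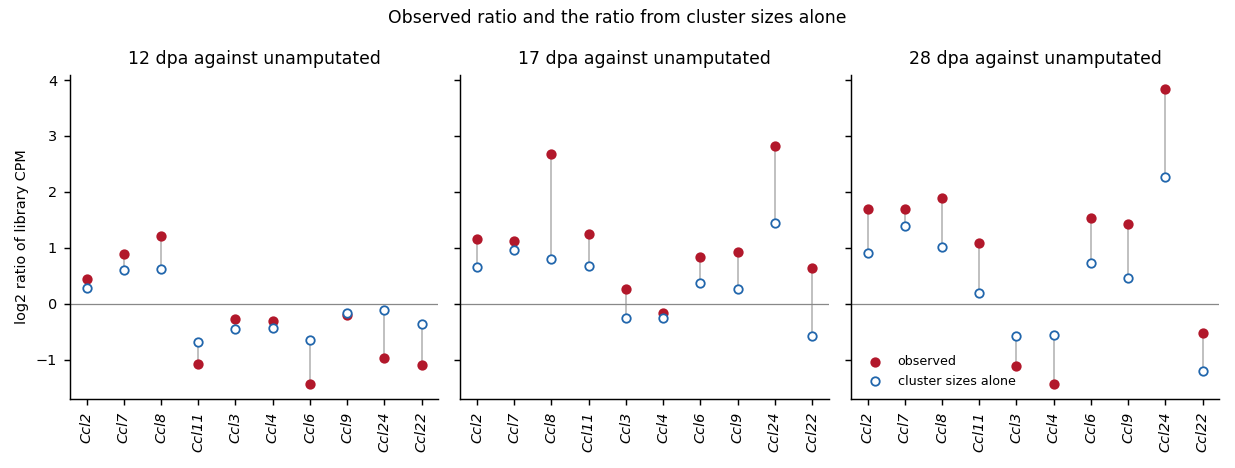
Log2 ratio of the library-wide level of each member to the unamputated library at 12, 17 and 28 dpa, observed (filled) and as it would be if only cluster sizes differed (open), on levels with 1 CPM added. For Ccl24 at 28 dpa the observed ratio is 3.83 and the ratio from cluster sizes 2.27.

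The receptors lay on the leukocytes. Of 10 CC receptors, 0 reached 5 CPM in fibroblast-like cells. Ccr1 in macrophage-like cells was at 74.5, 50.05, 52.5 and 79.2 CPM. Ccr2, the receptor for Ccl2 and Ccl7, was at 58.9, 26.1, 73.8 and 30.6 CPM, at least 2-fold lower at 12 dpa. Elsewhere, Ccr2 peaked in monocyte-like cells (799 CPM at 17 dpa), Ccr7 and Ccr6 in B-like cells at 17 dpa (220.3 and 82.6 CPM) and Ccr9 in dendritic-like cells at 28 dpa (76.9 CPM). Ccr3, the receptor of both eotaxins, did not pass 11.5 CPM in any class of at least 50 cells, Ccr4 not 32.8, Ccr8 not 25.3 and Ccr10 not 4.73.

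Of the 4 atypical receptors, which bind chemokines without G protein signalling, Ackr3 stood highest in fibroblast-like cells, at 331, 358, 362 and 596 CPM. Ackr2, a scavenger of inflammatory CC chemokines, was there at 2.17, 24.7, 5.09 and 23.3 CPM, at least 2-fold higher at 12 and 28 dpa. Ackr1, on venular endothelium, was in vascular endothelial-like cells at 99.6, 80.7, 98.6 and 141 CPM. In macrophage-like cells Ackr3 was at 9.097, 2.97, 11 and 36.7 CPM.

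Of 11 other CC chemokines, 2 reached 5 CPM in macrophage-like and 2 in fibroblast-like cells, and 0 were 2-fold different at any time in either. Ccl12, the neighbour of Ccl11 and Ccl8, was in macrophage-like cells at 7.26, 13.5, 14.6 and 6.42 CPM, highest at 17 dpa as Ccl8 was. With 1 CPM added to both levels, the 17 dpa level of Ccl12 was less than 2-fold different from unamputated tissue. Ccl21a lay in lymphatic endothelial-like cells (11203 CPM in unamputated tissue), Ccl5 in T-like cells (1485 CPM at 28 dpa) and Ccl17 in dendritic-like cells (189 CPM at 28 dpa). Ccl22 was at its lowest in dendritic-like cells at 28 dpa, at 21.7 CPM.

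Of 13 NF-kappaB response genes, 12 reached 5 CPM in macrophage-like cells, and 0, 0 and 2 (Birc3 and Il1b, both lower) were 2-fold different at 12, 17 and 28 dpa, where 5.72% of all genes were lower at 28 dpa. Il1b was at 125, 102, 106 and 59.8 CPM there, with the late low point of Ccl3 and Ccl4. In fibroblast-like cells 11 reached 5 CPM, and Nfkb1 and Icam1 were 2-fold lower at 12 dpa (6.62% of all genes were). Il6 was there at 8.63, 10.7, 34.4 and 27.7 CPM, at least 2-fold higher at 17 dpa (0.585% of all genes were) and 28 dpa (2.23%). Of 12 genes of alternative activation, 11, 10 and 10 reached 5 CPM in macrophage-like cells at 12, 17 and 28 dpa. At 12 dpa 5 were 2-fold lower (2.31% of all genes were), at 17 dpa 6 were higher (3.57%) and at 28 dpa 5 were higher (3.97%), with Cd163, Folr2, Retnla, F13a1 and Cbr2 higher at both later times, as Ccl24 was. Folr2, F13a1 and Cbr2 are among the leading genes of clusters 28 or 31, whose part of the class grew as given above. Within cluster 28, Folr2 was at 495 CPM at 28 dpa against 308 in unamputated tissue, but Cd163 was at 74.3 against 84.4 and Retnla at 17.9 against 54.0 CPM. Folr2 was 1 of the 3 genes most like Ccl24 over the 75 sums (r 0.85), with Pf4 (0.87) and C1qc (0.81).

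Among the other members, the genes most like Ccl9 were Csf1r, Cd68 and Pld4 (0.96, 0.94 and 0.93), and for Ccl6 Cd300lb, Cd33 and Itgam (0.96 each). Ccl3 and Ccl4 were each the most like the other (0.96). For Ccl22 the first was Ccl17 (0.89), for Ccl8 Wnt2 (0.64) and for Ccl7 Steap3 (0.78), followed by Ccl2 (0.74). The gene most like Ccl2, Gm17268 (0.88), overlaps it on the opposite strand, so reads of the pair cannot be told apart if the counting ignored strand. Ccl6 overlaps E230016K23Rik in the same way. Ccl9 transcripts share 50-base stretches with 250 other genes, and no member shares such a stretch with another member.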

How the data were processed

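Transcripts of single cells were measured in 4 libraries, 1 for each group. The deposited values were whole-number UMI counts per gene and cell barcode, made by the authors with Cell Ranger 7.1.0 on mm10, per the submitters' processing notes. The annotation and the cell-calling settings are not given in the sources used here. The members and all gene lists were chosen with earlier results of these data known.

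Barcodes with 500 or more genes, 1000 or more UMIs and no more than 10% mitochondrial UMIs were kept. The highest Scrublet scores, 0.8% per 1000 barcodes, were removed as doublets (7.05% to 12.8% of barcodes); Scrublet's own threshold marked 222 to 697 barcodes per library. Libraries were clustered together in scanpy 1.11.5 (10000 UMIs per cell, 2000 variable genes, 30 components, 15 neighbours, Leiden resolution 1), without chemokine, receptor, other listed, Y-linked, Xist or mitochondrial genes. Clusters were named from markers of 30 classes, of which at least 3 had to be detected in at least 25% of cells and none of another class could outnumber them among the 10 leading genes. Leading genes were those of highest fold over the equal-weight mean of the other clusters. That choice was made after 9 combinations had been looked at for 4 clusters. With a fold over all other cells pooled, 4 names would differ: cluster 28 would be unnamed, and clusters 12, 15 and 23 would be called smooth muscle-like, neutrophil-like and osteoblast-like.

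UMIs were summed over the cells of a class and given as CPM with exact Poisson intervals. Shares of cells carry exact Clopper-Pearson intervals. Ratios are log2 of CPM with 1 added. Genes of at least 5 CPM in either library were compared, in classes of at least 50 cells. With 1 library per group no test was run. One listed receptor gene is not reported here. Named genes were the members, listed genes of at least 50 CPM in any such class (others are counted or named only for contrast), and the 3 genes most like each member among 12724 genes of at least 20 CPM. Male calls required 2 or more Y-linked UMIs without Xist, and female calls 2 or more Xist UMIs without Y-linked ones. The computation was tested on simulated data. Positions are from GENCODE M21, in which 32235 of the 32285 listed IDs were found, and promoters from RefSeq. Alternatives covered the cell filter, doublets, resolution, naming, weighting, thinning, pseudocount, centring, sex and clusters, those on clusters chosen after seeing the data.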

Additional observations from a re-analysis of the deposited data

How the results depend on the processing

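No paired analysis was possible because each group held 1 library. The median log2 ratio of the members kept its direction under every alternative run in macrophage-like cells at 12 and 17 dpa and in fibroblast-like cells at 17 and 28 dpa, and in macrophage-like cells at 28 dpa under all but 1, cluster 28 alone, where it was about 0. In macrophage-like cells at 12 dpa (-0.42) it was -0.61 with the looser and -0.81 with the stricter cell filter, -0.64 with no doublets removed, -0.69 thinned to 2000 UMIs, -0.18 with the median of all genes subtracted, -0.69 in cluster 28, -0.22 in cluster 13 and -0.76 pooled with cluster 0. At 17 dpa (1.12) it was 1.03 at Leiden resolution 2, 0.37 in cluster 28 and 0.57 in cluster 13. At 28 dpa (1.265) it was 1.505 with the looser filter, 1.51 with no doublets removed, 1.39 thinned, 1.18 with a pseudocount of 5 CPM, 0.82 over members of at least 50 CPM, 0.015 in cluster 28, 1.805 in cluster 13 and 1.495 pooled with cluster 0. In fibroblast-like cells at 12 dpa (0.65) it reversed to -0.0615 with the looser filter and -0.58 in cluster 10, and was 0.14 at Leiden resolution 2, 0.91 thinned and 1.02 in cluster 26. At 17 dpa (0.93) it was 1.096 at resolution 2, 1.11 with the looser filter, 0.67 with no doublets removed, 0.55 in cluster 26, 0.61 in cluster 16 and 1.17 pooled with tenocyte-like cells. At 28 dpa (1.11) it was 0.88 with no doublets removed, 1.29 both with cells weighted equally and thinned, 0.96 in male cells, 2.01 in cluster 10 and 0.56 in cluster 26. Of the ratios of single members under these alternatives, 266 stayed within their counting interval, 246 moved beyond it, and 1 that had been past 2-fold reversed: Ccl4 in macrophage-like cells at 28 dpa was 0.21 in cluster 13 alone against -1.23 in the class. The leading class of a member differed in 22 of 40 pairs of member and library when each cell was named alone or no doublets were removed, settings under which cells of clusters 0, 12 and 15 can carry other names. The causes were not tested. Male cells gave no value at 12 dpa.

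The 12 dpa fibroblast-like class rests on 242 cells, and several levels, mostly at 12 dpa, rest on 1 cell. Depth fell from 11637.5 to 6651 UMIs per cell between the unamputated and 28 dpa libraries, which bears on shares of cells. Differences between single libraries include any difference between pools of animals, sorts or digestions, and these cannot be told apart from time.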

Other observations

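Blood-derived cells outside the macrophage-like class also carried members of the second run on chromosome 11. In monocyte-like cells Ccl6 was at 413 CPM in unamputated tissue and 563 CPM at 17 dpa (189 and 68 cells), and in neutrophil-like cells at 327 and 390.3 CPM (520 and 222 cells). Ccl4 in T-like cells was at 127, 19.6, 66.1 and 23.6 CPM, with 11 UMIs at 12 dpa and 5 at 28 dpa, and at 3.57 CPM at 12 dpa without the highest cell. Cluster 23, led by Chad, Comp and Ogn, had Ccl2 at 185 CPM at 28 dpa, but 1 cell held 181 of the 257 UMIs, and without it the level was 54.7 CPM.

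Heparan sulfate carriers, which hold chemokines in the matrix and on cell surfaces, were counted over a list of 10 genes. In fibroblast-like cells all 10 reached 5 CPM and 0 were 2-fold different at any time. Sdc2, a syndecan of mesenchymal cells, was at 367, 325, 389 and 569 CPM, and Hspg2, which encodes perlecan, at 272, 283, 275 and 248 CPM. In macrophage-like cells Sdc1 was at 32.7, 24.7, 12.0 and 7.97 CPM and Ndst1, a sulfating enzyme of the chain, at 17.2, 25.1, 12.0 and 6.56 CPM, both at least 2-fold lower at 28 dpa. Of 9, 7 and 9 genes at 5 CPM or more there, 0 were 2-fold different at 12 dpa, 1 at 17 dpa (Sdc1) and 3 at 28 dpa, the third being Sdc2, which was higher at 5.16 CPM. Over all genes 1.83% were lower at 17 dpa, and 3.97% were higher and 5.72% lower at 28 dpa.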
